A study of Homo sapiens with 12 samples.

Results

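The comparison described here is that of RPMI2650 cells exposed to perfluorobutanoic acid (PFBA) with unexposed control cells, chosen by the treatment label alone, and it takes in 8 of the 12 libraries of the series. Every gene with enough counts was included, 16554 of the 50868 genes in the deposited table. RPMI2650 is an established human epithelial line from a tumour of the nasal septum, here wild type and held at an air-liquid interface, where the upper cell surface faces air. The 4 PFBA libraries come from cells given 1 µM PFBA for 7 days, and the 4 control libraries carry the treatment label Control with no day or vehicle recorded. The other 4 libraries, given 1 µM perfluorohexanoic acid (PFHxA) for 7 days, shared the fit and serve below as a reference. The labels do not say that the 4 libraries of a group are separate cultures, so p-values measure only the spread between these samples, which may be technical.

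PFBA is a short-chain perfluoroalkyl carboxylic acid, a fully fluorinated analogue of a short fatty acid, and PFHxA has a longer chain of the same kind. Longer members of the class are known as ligands of the peroxisome proliferator-activated receptors (PPARs), nuclear receptors that switch on fatty acid oxidation genes. The nasal epithelium is a first surface met by inhaled compounds, and its cells hold a barrier of junctions, a basement membrane below, and enzymes and stress pathways that respond to foreign chemicals and metals.

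Total counts ran from 16941599 to 21508681 in the control libraries and from 18411985 to 21879105 with PFBA. None of 8 measures of a whole library (depth, genes with a count, mitochondrial share, share of the 50 most abundant genes, scaling factor, MALAT1 and NEAT1 share, slopes over length and over GC content) separated the groups, with exact permutation p from 0.0857 to 0.971, two-sided, and adjusted p of 0.686 or more, where 4 against 4 allows no p below 0.0286. Control d stood apart from the other controls in several of them: its mitochondrial share was 9.15% of counts against 10.97% to 11.94%. The label of an epithelium was checked on the mean control level per transcript length, in CPM (counts scaled to the library total) per kilobase. Of epithelial markers, 10 of 14 simple epithelium and 6 of 20 basal genes reached 1 CPM per kilobase. The epithelial keratins KRT5, KRT7, KRT19 and KRT17 stood at 759, 752, 258 and 177 CPM per kilobase and the epithelial adhesion gene EPCAM at 25.1, while GRHL2, an epithelial transcription factor, had no count and CDH1 (E-cadherin) and the basal cell genes TP63, KRT14 and KRT15 stood at 1.73, 0.39, 0.33 and 0.078. Of markers of other cells, 0 of 14 immune, 4 of 11 endothelial, 2 of 13 fibroblast, 3 of 20 secretory, 7 of 21 ciliated and 4 of 14 neural genes reached 1 CPM per kilobase, among them EGFL7 at 14.6, PDGFRB at 4.55, TFF3 at 14.3, FOXJ1 at 2.94 and TUBB3 at 23.1. The secretory product gene SCGB1A1 had no count, and the leukocyte gene PTPRC had at most 2.

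After PFBA, 1 of 16554 genes passed the test (0.00604%), as higher, and no gene passed as lower (0.0%). Without adjustment 1632 genes had p under 0.05 (9.86%), 787 of them higher (4.75%) and 845 lower (5.1%). In 987 genes (5.96%) the 4 PFBA libraries did not overlap the 4 controls, with 524 higher (3.17%) and 463 lower (2.8%). DESeq2, run as an alternative, called 44 of the 14297 genes to which it gave an adjusted p (0.308%), 23 higher (0.161%) and 21 lower (0.147%), and limma-voom called 0. Fitted values below 0 made up 50.9% of all genes and values above 0 made up 49.1%. Left without control d, edgeR called 0 genes and DESeq2 26, of which 16 were among the 44.

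The median size of the fitted change was 0.09 on the log2 scale, or 1.07-fold. For 12068 genes (72.9%) the 95% interval of the change lay wholly within 1.5-fold either way, and for 6364 (38.4%) within 1.2-fold. Among the 14620 genes with a mean of at least 1 CPM (from here on scaled to the effective library size) these shares were 82.2% and 43.5%. A fitted change of 1.5-fold or more was seen in 454 of all tested genes, and in 91 of them the libraries did not overlap. Among the genes with a mean of at least 1 CPM these counts were 197 and 41.

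**Figure D1:**
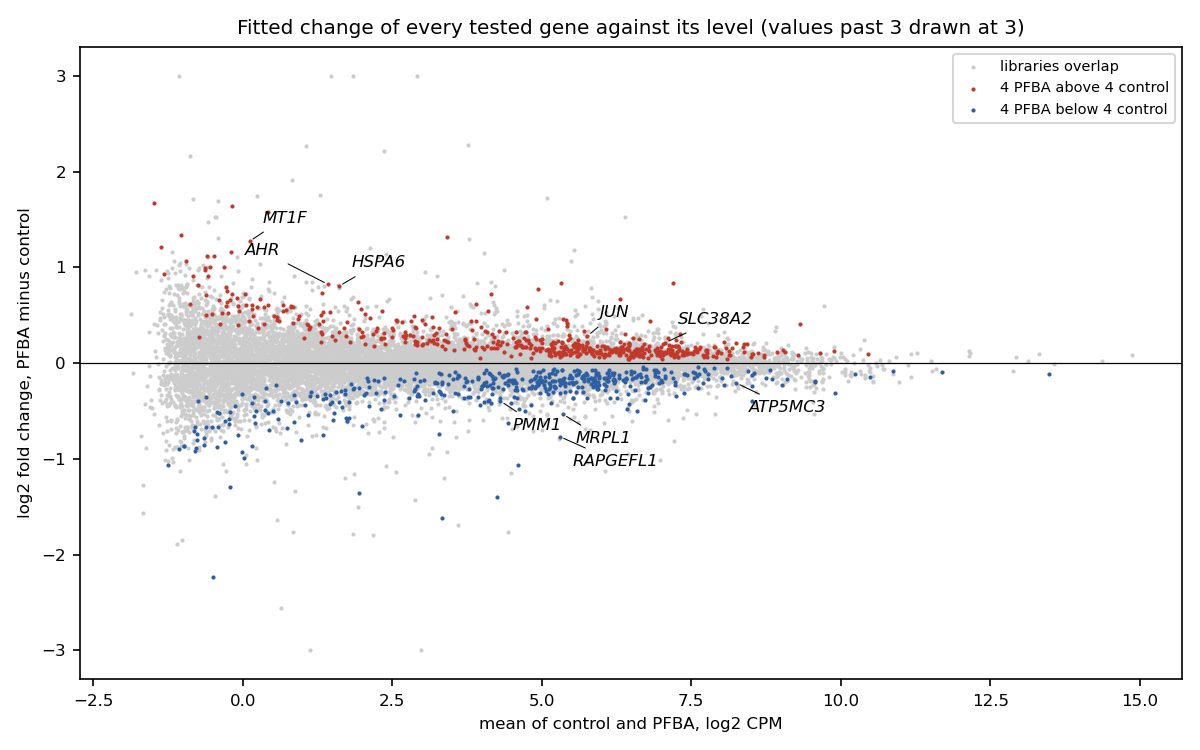
Fitted log2 fold change of PFBA minus control (vertical axis) against the mean level in log2 CPM (horizontal axis) for all 16554 tested genes, with values past 3 drawn at 3. Red and blue points are the 524 and 463 genes whose 4 PFBA libraries lay above or below all 4 controls.

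Matrix genes as a group lay slightly higher. Of 39 tested genes of the basement membrane and other matrix, 32 were fitted higher, 5 did not overlap with control on the higher side (12.8%, beside 3.17% of all genes) and 0 passed the edgeR test, with a median change of 0.12 beside -0.0026 over all tested genes. Their median transcript length was 5102 bases. In the length class of 4485 to 6158 bases described below, 4.59% of genes lay above control without overlap. In bulk RNA, more cells that express a gene and more RNA in each cell cannot be told apart. LAMA5, the alpha-5 laminin chain, was 0.15 higher (0.06 to 0.24, adjusted p = 0.321), and PLOD2, which hydroxylates collagen lysines, 0.14 higher (0.06 to 0.23, adjusted p = 0.304).

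Of 24 tested collagen genes, 23 were fitted higher, with a median of 0.11, though the 4 PFBA libraries stood clear of the controls in 1 gene (4.17%, beside 3.17% of all genes), COL15A1, a basement membrane collagen, at 20.7 to 24.1 CPM in control and 24.8 to 27.6 with PFBA. Of 27 TGF-beta and YAP targets, 21 were fitted higher with a median of 0.10. TGFB2, a ligand of the pathway, stood at 206 to 243 CPM in control and 247 to 255 with PFBA (0.16, interval 0.06 to 0.27, adjusted p = 0.321). ID3, an inhibitor of differentiation factors and a target of BMP signalling, lay on the other side, at 115, 129.5, 121 and 129 CPM in control and 104, 108, 107 and 105 with PFBA (-0.22, interval -0.32 to -0.13, adjusted p = 0.256). Control d had the lowest mean log2 level over members among the controls in these 3 lists. Without it the median changes were 0.06 for the basement membrane list, 0.03 for collagens and 0.06 for TGF-beta and YAP targets.

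JUN encodes a subunit of the AP-1 transcription factor and is induced within minutes by many stimuli. JUN stood at 49.95, 49.94, 47.65 and 48.6 CPM in control and at 55.3, 64.4, 56.15 and 62.7 CPM with PFBA. All 4 PFBA libraries were above the controls, by 0.28 on the log2 scale (0.17 to 0.40, adjusted p = 0.256). Among 32 tested immediate early genes 21 were fitted higher, 4 without overlap (12.5%, beside 3.17% of all genes), with a median of 0.09. PHLDA1 lay at 22.6 to 27.7 CPM in control and 28.7 to 29.3 with PFBA, and KLF10 at 22.6 to 26.2 and 26.4 to 27.5.

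HSPA6, a stress-inducible chaperone gene that is nearly silent without stress, stood at 2.56, 1.67, 2.16 and 2.51 CPM in control and 4.24, 3.24, 3.42 and 4.63 CPM with PFBA. The groups did not overlap, and the change of 0.80 (0.45 to 1.16) had an adjusted p of 0.281. Of 22 other heat shock chaperones tested, 10 were fitted higher and 12 lower, with a median of -0.01 (0.0059 without control d) and no gene outside the range of the controls in all 4 libraries. HSPA8, the constitutive member, stood at 1841 to 2009 CPM in control and 1672 to 1990 with PFBA.

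Metallothioneins are small metal-binding proteins whose genes respond to zinc and other metals. MT1F stood at 0.65, 0.81, 0.54 and 0.53 CPM in control and 2.28, 1.08, 1.25 and 1.53 with PFBA, and MT2A at 13.4, 13.5, 12.9 and 11.1 against 19.3, 14.3, 16.2 and 19.2. Neither overlapped with control. The changes were 1.27 (0.65 to 1.90, adjusted p = 0.297) for MT1F and 0.44 (0.20 to 0.68, adjusted p = 0.304) for MT2A. SLC30A1, the zinc exporter induced by the same metal sensor, was flat, at 141 to 143 CPM in control and 141 to 150 with PFBA (0.04, interval -0.04 to 0.11). Of the 9 tested genes of the list, 7 were fitted higher with a median of 0.05.

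The 250 bases before the start site of JUN, HSPA6 and MT2A are printed to show which known response elements lie at the genes of these 3 stress groups. The sequences are RefSeq's for GRCh38.p14, read 5′ to 3′ on the strand of the gene, and capitals mark letters found on either strand by search: TGANTCA (AP-1 element) in HSPA6 and MT2A, TGACATCA (the variant of it known from the JUN promoter) in JUN, GAANNTTC (core of the heat shock element) in HSPA6, and TGCGCNC and TGCACNC (metal response element) in MT2A.
JUN, chr1:58784048-58784297, minus strand: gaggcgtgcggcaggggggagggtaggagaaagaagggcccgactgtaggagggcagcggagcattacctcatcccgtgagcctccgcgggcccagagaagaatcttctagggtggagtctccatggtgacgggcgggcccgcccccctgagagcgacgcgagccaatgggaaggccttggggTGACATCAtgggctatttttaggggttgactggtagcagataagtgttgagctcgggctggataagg
HSPA6, chr1:161524290-161524539, plus strand: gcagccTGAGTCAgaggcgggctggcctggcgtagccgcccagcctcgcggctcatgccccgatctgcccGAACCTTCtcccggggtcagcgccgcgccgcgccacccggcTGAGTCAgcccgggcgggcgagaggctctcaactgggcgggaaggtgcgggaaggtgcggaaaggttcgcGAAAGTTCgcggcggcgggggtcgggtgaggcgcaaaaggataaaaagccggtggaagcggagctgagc
MT2A, chr16:56608334-56608583, plus strand: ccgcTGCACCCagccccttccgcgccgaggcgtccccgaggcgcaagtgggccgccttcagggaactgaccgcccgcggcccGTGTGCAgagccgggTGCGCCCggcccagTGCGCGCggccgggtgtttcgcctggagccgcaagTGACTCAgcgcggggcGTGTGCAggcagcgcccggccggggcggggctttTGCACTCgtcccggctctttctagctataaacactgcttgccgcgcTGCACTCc
JUN held the variant AP-1 letters once and no TGANTCA, HSPA6 held TGANTCA at 2 places and the heat shock core at 2, and MT2A held TGANTCA once, TGCGCNC at 2 places and TGCACNC at 5. JUN also holds 1 match to GAANNTTC, not in capitals. Of 35116 windows of the same length, 6.57% held TGANTCA, 2.37% TGACATCA, 5.78% GAANNTTC, 16.8% TGCGCNC and 9.87% TGCACNC. These matches describe the sequence and say nothing of which factor was bound.

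**Figure D2:**
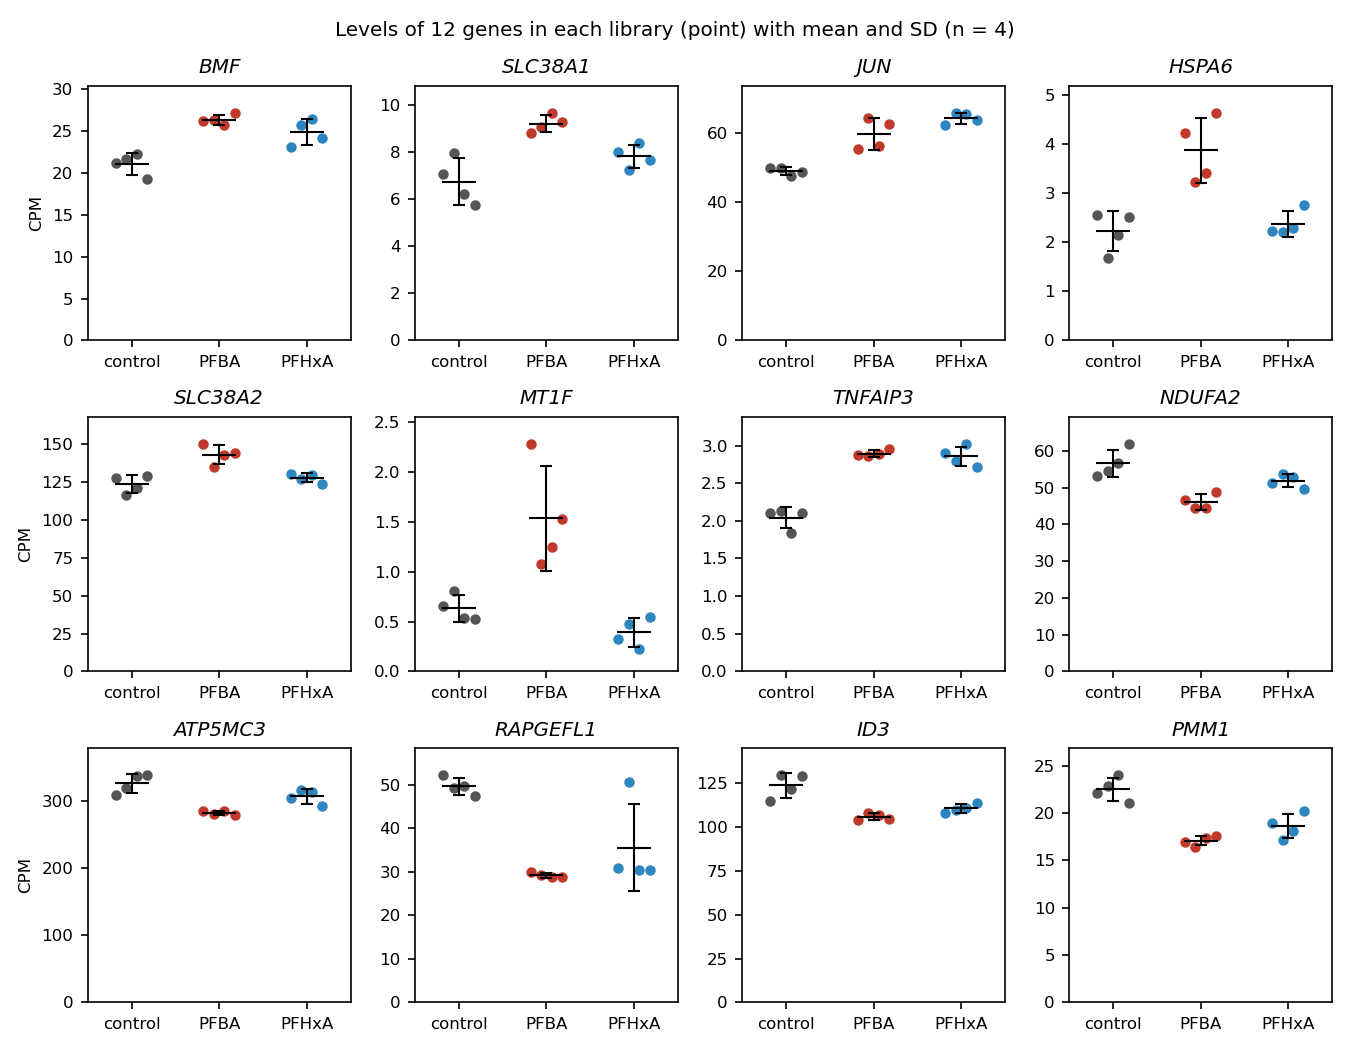
CPM of 12 genes (vertical axes from 0) in each library of the control, PFBA and PFHxA groups, with mean and SD (n = 4). The 4 PFBA points of each of the 12 genes lie on 1 side of the 4 control points, a condition by which most of them were named. Fitted changes were 2.41-fold in MT1F and, downward, 1.70-fold in RAPGEFL1.

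Genes of amino acid supply and the integrated stress response, the programme that ATF4 drives when translation is limited, lay slightly higher. Of 36 tested, 25 were fitted higher, 7 lay above control without overlap (19.4%, beside 3.17% of all genes) and 0 passed the edgeR test, with a median of 0.04. SLC38A2, a sodium-coupled neutral amino acid transporter, stood at 128, 117, 121 and 129 CPM in control and 150.1, 135, 143 and 145 with PFBA, with no overlap (0.21, interval 0.12 to 0.31, adjusted p = 0.29). Its relative SLC38A1 stood at 5.72 to 7.96 CPM and 8.79 to 9.63 (0.45, interval 0.23 to 0.66, adjusted p = 0.297), SLC7A1, which carries cationic amino acids, at 248 to 278 and 288 to 299, and the stress cytokine GDF15 at 112 to 119 and 120.3 to 138. DDIT3, the pro-apoptotic factor at the end of the pathway, did not follow, at 33.9 to 44.4 CPM in control and 30.0 to 37.5 with PFBA.

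Nuclear genes of the respiratory chain lay lower in nearly every case, each by a small amount. Of complex I, which takes electrons from NADH, 36 of 37 subunits were fitted lower with a median of -0.16, and 7 lay below control without overlap (18.9%, beside 2.8% of all genes). Complex I transcripts are short, with a median of 1333 bases. In the shortest length class described below, 77.6% of genes were fitted lower and 8.26% lay below control without overlap. Complexes II and III had 11 of 13 lower (median -0.16), complex IV 10 of 10 (-0.20) and ATP synthase 15 of 16 (-0.17). Control d was the highest control in these 4 lists. Without it the medians were -0.11 (complex I), -0.14 (complexes II and III), -0.17 (complex IV) and -0.11 (ATP synthase). None of the genes of these 4 lists passed the edgeR test. NDUFA2, a complex I subunit, stood at 53.3, 54.6, 56.8 and 61.8 CPM in control and 46.6, 44.4, 44.4 and 48.9 with PFBA (-0.30, interval -0.42 to -0.18, adjusted p = 0.256). ATP5MC3, the membrane ring subunit of ATP synthase, stood at 309, 319.7, 338 and 338 against 285, 281, 285 and 279 (-0.21, interval -0.29 to -0.12, adjusted p = 0.256). UQCRQ of complex III lay at 89.1 to 103 CPM against 66.0 to 85.7, and COX8A of complex IV at 151 to 169.8 against 136 to 146. In these 4 genes the groups did not overlap.

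The 13 proteins encoded by mitochondrial DNA did not follow the nuclear subunits: 11 were fitted higher, with a median of 0.07, and their summed level was 68150 to 96590 CPM in control and 88400 to 93390 with PFBA. Control d held the lowest of these sums, and without it the median was -0.03. The mitochondrial ribosome lay lower like the chain, with 65 of 75 genes fitted lower (median -0.12, or -0.08 without control d). Of these genes 12 lay below control without overlap (16%, beside 2.8% of all genes and 8.26% of the shortest length class), while 1 lay above it. MRPL1 stood at 45.2, 43.9, 45.3 and 59.5 CPM in control and 34.3, 32.0, 31.5 and 35.8 with PFBA (-0.54, interval -0.78 to -0.29, adjusted p = 0.297). The tricarboxylic acid cycle and glycolysis did not share the shift, with medians of -0.03 over 19 genes and 0.00064 over 30.

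Other genes for large protein complexes lay lower too. Cytosolic ribosomal proteins were fitted lower in 42 of 47 of the large subunit (median -0.12) and 29 of 32 of the small subunit (-0.16), although 1 gene of each list lay below control without overlap (2.13% and 3.12%, beside 2.8% of all genes). Without control d these medians were -0.08 and -0.10. Of 34 proteasome subunits 32 were fitted lower (median -0.13, or -0.10 without control d), PSMD8 at 188 to 206 CPM in control and 172 to 183 with PFBA among them.

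For each of the 46 lists the mean log2 level over members was taken in each library. The 4 PFBA library means lay below the 4 control means in 6 lists and above them in 4, and overlapped in 36. The 6 were complex I, complexes II and III, mitochondrial ribosomal proteins, the proteasome, splicing factors and DNA replication. The 4 were fatty acid oxidation and PPAR targets, the integrated stress response, basement membrane genes and TGF-beta and YAP targets. Some of these separations were near-ties, in log2 units from the control mean. Basement membrane genes stood at 0.07236 in PFBA d and 0.07197 in control b. The integrated stress response stood at 0.0307 in PFBA c and 0.0296 in control c, and splicing factors at -0.0087 in PFBA d and -0.0079 in control c. Complex IV, ATP synthase and both ribosomal lists overlapped. Such a mean can follow single members. Median changes were -0.02 for splicing factors (members from -0.69 to 0.28) and 0.02 for fatty acid oxidation and PPAR targets (-0.52 to 1.04).

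The direction of a gene went with the length of its transcript. Protein-coding genes at 10 CPM or more were put in 5 classes of about equal size by length. The median change was -0.07 in the shortest class (207 to 2286 bases), then -0.03, -0.0022, 0.02 and, in the longest (6161 to 34526 bases), 0.06. With PFHxA, against the same 4 controls, the class medians climbed likewise, at -0.05, -0.0032, 0.0044, 0.04 and 0.04. Genes fitted lower made up 77.6% of the shortest class and 23.1% of the longest. Genes below control without overlap made up 8.26% and 0.573%, and genes above it 0.572% and 10.4%. The median transcript length was 1333 bases for complex I, 1006 for complex IV and 1575 for small-subunit ribosomal proteins, and 6454 for collagens and 5102 for basement membrane genes, beside 3252 over all tested genes. Among lists whose library means lay lower, splicing factors (3288 bases) and DNA replication (3240) were near the median of all genes. Among those higher, the integrated stress response (3096) and fatty acid oxidation and PPAR targets (2812) were below it.

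The slope of log2 level per doubling of length was -0.01, -0.0046, -0.02 and -0.06 in control a to d and 0.02, 0.03, 0.01 and -0.01 in PFBA a to d. These slopes overlapped between groups. Without control d the class medians ran from -0.05 to 0.04. After a spline on GC content and length had been taken out of every library, they ran from -0.03 to -0.0025, the lists kept medians of -0.14 (complex I), -0.15 (complexes II and III), -0.13 (complex IV), -0.15 (ATP synthase), -0.08 (mitochondrial ribosome), -0.10 and -0.14 (ribosomal large and small subunit) and -0.10 (proteasome), and on the higher side 0.07 (collagens), 0.08 (basement membrane) and 0.10 (TGF-beta and YAP targets). The part that length, RNA quality or library preparation has in the list medians was not tested beyond this.

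**Figure D3:**
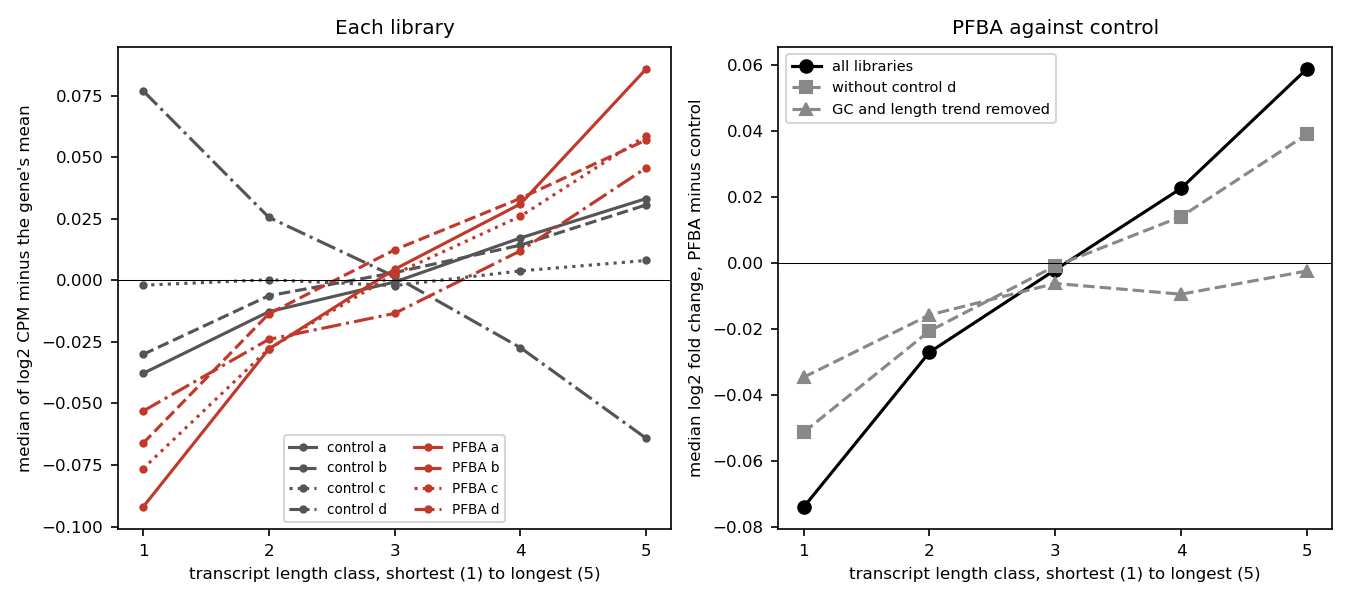
Left, median of log2 CPM minus each gene's mean over the 4 control libraries (vertical axis) in 5 classes of transcript length from shortest to longest (horizontal axis), 1 line per control (grey) or PFBA (red) library. Right, median log2 fold change of PFBA minus control per class with all libraries, without control d, and after the splines on GC and length were taken out: the climb from -0.07 to 0.06 shrinks to -0.05 to 0.04 without control d.

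Of 49 genes of DNA replication 38 were fitted lower (median -0.05) and of 45 mitotic genes 32 (-0.05), with 3 (6.12%) and 0 below control without overlap, beside 2.8% of all genes, and 1 mitotic gene above it. MCM7, part of the replicative helicase, stood at 149 to 176 CPM in control and 128 to 146 with PFBA (-0.23, interval -0.37 to -0.08, adjusted p = 0.321), and CCNB1, the mitotic cyclin, at 83.2 to 92.6 and 80.3 to 86.0. CDKN1A, the p53 target that halts the cycle, stood at 624 to 660 CPM in control and 584 to 639 with PFBA (-0.07, interval -0.15 to 0.01). Targets of p53 and apoptosis genes had a median of -0.05 over 33 genes. BMF, a pro-apoptotic member of the BCL2 family, stood at 21.2, 21.6, 22.3 and 19.2 CPM in control and 26.2, 26.3, 25.7 and 27.1 with PFBA, without overlap (0.32, interval 0.19 to 0.46, adjusted p = 0.269).

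The genes that PPARs control were examined because the class is known for that receptor. Of 34 tested, 21 were fitted higher and 13 lower, with a median of 0.02 and 1 gene above control without overlap (2.94%, beside 3.17% of all genes). That gene was CPT1A, the gate of mitochondrial fatty acid oxidation, at 70.2, 67.6, 69.3 and 64.9 CPM in control and 77.9, 72.6, 73.2 and 74.1 with PFBA. Its change of 0.13 (0.03 to 0.23) had an adjusted p of 0.402 and an interval that ends below 1.2-fold. PDK4 stood at 16.5 to 17.5 CPM and 17.3 to 20.2 (0.15, interval 0.01 to 0.29), the lipid droplet gene PLIN2 at 5.93 to 7.53 and 7.44 to 9.77 (0.24, interval 0.0034 to 0.47), and ANGPTL4, a secreted lipase inhibitor, at 0.84 to 1.34 and 1.27 to 1.97 (0.47, interval 0.02 to 0.92). PPARA itself stood at 7.76 to 11.3 CPM in control and 8.70 to 12.9 with PFBA (0.16, interval -1.15 to 1.47), a wide interval from a fit that also held a PFHxA library at 56.6 CPM.

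Sterol and fatty acid synthesis showed small differences of mixed sign. Cholesterol genes had a median of -0.04 over 26 (-0.06 without control d), with FDPS, the farnesyl diphosphate synthase, at 99.2 to 102 CPM in control and 86.2 to 94.3 with PFBA (-0.15, interval -0.23 to -0.07, adjusted p = 0.304). FASN, fatty acid synthase, stood at 503 to 541 CPM and 453 to 519.8 (-0.10, interval -0.20 to -0.0054). ELOVL6, which lengthens fatty acids, stood at 90.4 to 100.2 and 79.6 to 90.2, without overlap.

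AHR, the receptor for dioxin-like compounds, stood at 1.26, 2.08, 2.48 and 1.99 CPM in control and 3.73, 3.02, 3.95 and 3.01 with PFBA. The groups did not overlap (0.82, interval 0.42 to 1.22, adjusted p = 0.297), while CYP1B1, a target of the receptor, stood at 5.17 to 7.12 and 6.74 to 8.53 CPM (0.19, interval -0.05 to 0.43). CYP1A1, its best known target, had too few counts to be tested. Targets of NRF2, the oxidative stress factor, had a median of 0.0087 over 28 genes (-0.0066 without control d). NQO1, its textbook target, lay lower, at 45.9 to 52.0 CPM in control and 39.4 to 44.7 with PFBA (-0.21, interval -0.33 to -0.09, adjusted p = 0.304), and HMOX1, haem oxygenase, at 7.47 to 8.63 and 7.79 to 9.41 (0.08, interval -0.12 to 0.27). HSPA5, the endoplasmic reticulum chaperone, stood at 1762 to 1793 CPM in control and 1744 to 1872 with PFBA (0.02, interval -0.05 to 0.09).

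Of 32 tested junction genes 18 were fitted higher, 4 of them without overlap (12.5%, beside 3.17% of all genes), with a median of 0.03. The scaffold TJP1 stood at 79.2 to 90.2 CPM in control and 87.6 to 94.9 with PFBA (0.11, interval 8.7e-05 to 0.23), and CLDN1 at 45.3 to 55.9 and 55.3 to 57.1 (0.14, interval 0.01 to 0.27). OCLN, the tight junction protein occludin, stood at 2.38, 3.04, 3.88 and 2.63 CPM in control and 4.74, 4.48, 4.29 and 4.98 with PFBA, without overlap (0.63, interval 0.20 to 1.06, adjusted p = 0.347). The nasal ion and water transport list had 9 of 18 on each side and a median of -0.00081. KRT5, the basal keratin, stood at 1858 to 1957 CPM in control and 1750.0 to 1844 with PFBA (-0.08, interval -0.17 to -0.0012), and MUC1, a surface mucin, at 4.71 to 6.54 and 4.46 to 6.04.

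Of 29 tested NF-kB targets and cytokines 21 were fitted higher with a median of 0.07 (0.11 without control d), 1 of them without overlap (3.45%, beside 3.17% of all genes), and the library means of the groups overlapped. That was TNFAIP3, which switches NF-kB signalling off, at 2.10, 2.13, 1.83 and 2.10 CPM in control and 2.87, 2.86, 2.89 and 2.96 with PFBA (0.50, interval 0.27 to 0.74, adjusted p = 0.297). CXCL8, the neutrophil chemokine, stood at 1.19 to 2.08 and 1.204 to 2.23 CPM (0.09, interval -0.39 to 0.58). Of 34 interferon-stimulated genes 20 were fitted lower with a median of -0.02, with ISG15 at 17.2 to 22.8 CPM in control and 15.03 to 18.2 with PFBA.

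Among the genes with the smallest p that belong to none of the groups above, MYH1 (a muscle myosin heavy chain), MYO5A (a vesicle motor), PRKCA (a protein kinase C), IRS2 (an insulin receptor substrate) and CD109 (a surface protein that restrains TGF-beta) lay higher, by 0.34, 0.21, 0.25, 0.32 and 0.20. PMM1 (a phosphomannomutase), ENKD1, NME1-NME2, POLE4 (a DNA polymerase epsilon subunit), MSRB1 (a methionine sulfoxide reductase) and PIN4 (a prolyl isomerase) lay lower, by -0.40, -0.41, -0.26, -0.44, -0.42 and -0.35. A lack of overlap between the groups was a condition of this naming, and the edgeR adjusted p of the 11 ran from 0.256 to 0.297. PMM1 stood at 22.2, 22.8, 23.99 and 21.02 CPM in control and 16.95, 16.5, 17.4 and 17.6 with PFBA (interval -0.54 to -0.25). NME1-NME2 is a read-through of its neighbours NME1 and NME2, which share its bases, so its own level is uncertain.

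RAPGEFL1, related to guanine nucleotide exchange factors, had the largest change of the genes named by smallest p in the lower direction, at 52.2, 49.4, 49.8 and 47.5 CPM in control and 29.9, 29.2, 28.8 and 28.9 with PFBA (-0.77, interval -1.08 to -0.46, adjusted p = 0.256). The groups stood far apart and each was tight. The PFHxA libraries gave 30.8, 50.7, 30.4 and 30.5 CPM, so that 1 of them lay at the level of control and 3 at that of PFBA. RAPGEFL1 passed the edgeR test in 1 of 12 fits with a library left out, that without PFHxA b, with adjusted p = 1.49e-05.

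Of the 44 genes called by DESeq2, 1 was called by edgeR, 6 overlapped between the groups and 8 shared their strand with an overlapping gene of at least 10 mean counts. For these the split of reads between the overlapping models bears on the value. PPAN, a ribosome biogenesis factor, stood at 19.4 to 28.6 CPM in control and 31.45 to 47.5 with PFBA, while PPAN-P2RY11, the read-through of the same locus, stood at 24.6 to 33.3 and 8.24 to 12.5. Summed with P2RY11 the locus gave 57.1 ± 3.77 CPM in control and 54.3 ± 5.22 with PFBA (SD, n = 4 each), an exact permutation p of 0.429, two-sided. AC139530.2 had no count in any control and 25.1, 0, 20.9 and 14.4 CPM with PFBA, and MRPL12 on the same strand of the locus stood at 110 to 118 CPM in control and 67.0 to 101 with PFBA. The sum of that locus, with SLC25A10, was 134 ± 4.89 CPM in control and 113 ± 8.65 with PFBA (SD, n = 4 each), an exact permutation p of 0.0286, two-sided, which is the smallest 4 against 4 can give. MRPL12, itself a DESeq2 call in these libraries, makes up most of the sum. This p therefore follows from the choice of locus, is not adjusted, and adds no separate evidence.

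Other DESeq2 calls of this kind were RPL36A-HNRNPH2, at 10.4, 10.8, 9.49 and 10.3 CPM in control and 27.1, 10.1, 27.4 and 25.9 with PFBA, whose locus sum did not differ beyond its spread (exact p = 0.343), and SNHG20, lower inside SEC14L1. SNHG20 stood at 5.02 to 5.78 CPM in control and 0.986 to 3.83 with PFBA. Its locus sum was 98.5 ± 6.07 CPM in control (SD, n = 4; exact p = 0.514). That sum is mostly SEC14L1 and cannot show a change of this size, so it does not bear on the SNHG20 call. XIAP, an inhibitor of caspases, stood at 15.3, 18.1, 12.7 and 16.9 CPM in control and 52.3, 56.2, 15.9 and 84.4 with PFBA. PFBA c lay inside the range of the controls and the other PFBA libraries far above it, so the fitted change of 1.73 has an interval of 0.85 to 2.61 and edgeR's adjusted p was 0.304. Without PFBA c edgeR called XIAP.

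**Figure D4:**
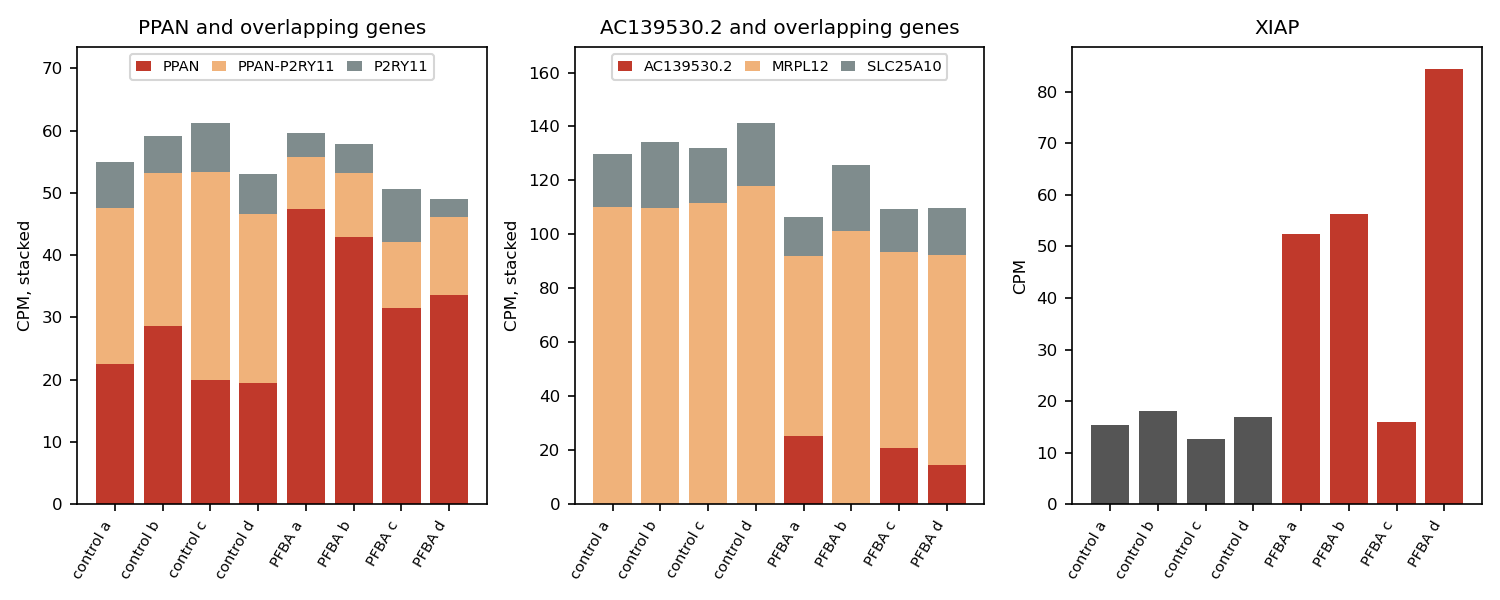
CPM of PPAN and AC139530.2 stacked with the genes that overlap them on the same strand (left and middle), and of XIAP (right), in each control and PFBA library. The PPAN locus keeps a like sum (57.1 ± 3.77 and 54.3 ± 5.22 CPM) while its parts shift, and XIAP of PFBA c lies among the controls at 15.9 CPM.

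The values with 1 µM PFHxA, at the same dose and time, are set beside those of PFBA for 170 named genes, bearing in mind that both groups share their 4 controls and that the genes were chosen on PFBA values. The direct test of PFBA against PFHxA called 1806 of 16554 genes (10.9%) and 23 of the 170. PFHxA against control called 2466 (14.9%). Of the 24 genes called or named by smallest p, all 24 had the same direction with PFHxA, against these shared controls. PFHxA against control was called in 14 of the 24, and 2 of the 24 differed between the acids. JUN was 0.39 higher with PFHxA than in control (edgeR adjusted p = 0.00137). JUN differed between the acids by -0.11, which was not called (edgeR adjusted p = 0.212). A missed threshold does not show that the acids act alike.

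Differences between the acids, each with its edgeR adjusted p over all tested genes, were found for the stress genes HSPA6, 0.70 higher with PFBA (adjusted p = 0.0159), and MT1F, 1.94 higher (adjusted p = 0.00278), whose PFHxA libraries held 0.224 to 0.544 CPM. SLC38A2 was 0.16 higher with PFBA (adjusted p = 0.0326) and PDK1, which restrains pyruvate oxidation, 0.36 higher (adjusted p = 0.00136). In the other direction CPT1A was 0.24 lower with PFBA than with PFHxA (log2 difference -0.24, adjusted p = 0.00729), FASN differed by -0.31 (adjusted p = 0.00182), FDPS by -0.23 (adjusted p = 0.00349), the amino acid transporter SLC7A5 by -0.29 (adjusted p = 0.00117) and LAMA5 by -0.21 (adjusted p = 0.00845). In the respiratory chain COX8A and NDUFB10 were lower with PFBA than with PFHxA, by -0.16 and -0.19 (adjusted p = 0.0328 and 0.0431). The lists of the chain lay lower with both acids, against the same 4 controls. Medians with PFHxA were -0.12 (complex I), -0.17 (complexes II and III), -0.20 (complex IV) and -0.14 (ATP synthase). Those with PFBA were -0.16, -0.16, -0.20 and -0.17. Other lists also kept their direction with PFHxA. Medians were 0.20 (collagens), 0.15 (basement membrane), 0.14 (TGF-beta and YAP targets), 0.16 (immediate early genes) and 0.09 (integrated stress response). Those of the ribosomal large and small subunit were -0.17 and -0.19. Further lists, among them metallothioneins (-0.09), cholesterol genes (0.08) and DNA replication (0.02), had the opposite sign with PFHxA.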

How the data were processed

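Raw read counts per Ensembl gene were deposited by the authors in 1 table, per the file headers, and 12 further columns of values were not used here. Reads were aligned with HISAT2 2.0.4 to GRCh38 (hg38), per the submitters' processing notes, while the counting program, strand option and gene models are not stated there. The groups were taken from the first letters of each column name (BA, HA and Ck), and letters a to d are the columns' own and not tied to label numbers. Marker levels are counts per total and per kilobase of the longest GENCODE 29 transcript.

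Counts were filtered by filterByExpr (minimum count 10, total 15), scaled by TMM and fitted in edgeR 4.0.16 (R 4.3.3) by robust quasi-likelihood over all 12 libraries with group as the only term, and p-values were adjusted by Benjamini-Hochberg over 16554 genes with a threshold of 0.05, two-sided. Intervals are at 95%. The pipeline was tested on simulated data. The fit was repeated with scaling by RLE or by the upper quartile, without the filter, with a stricter filter (mean count 50, and 4 libraries at 1 CPM), on the 8 libraries alone, with DESeq2 1.42.0, limma-voom (limma 3.58.1), a minimum change of 1.2-fold, with offsets from splines (5 degrees of freedom) on the GC content and length of that transcript, with the column letter as a block, and without each library. DESeq2 on 8 libraries or without control d, the splines without control d, length classes, locus sums, library swings and promoter motifs were chosen after seeing the data.

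Named genes are those with adjusted p under 0.05, then in each direction the smallest p among genes of at least 1 CPM without overlap and with no clone, pseudogene, antisense or small RNA name, up to 12 per direction, up to 3 genes of smallest p per list, up to 10 DESeq2 calls per direction, and a fixed set of stress, lipid and barrier genes. Some named genes are not reported here. Further DESeq2 calls (PPAN, MRPL12, SNHG20) were named after their values were seen. The members and the 46 lists were chosen with earlier results of these data known, so lists have counts and medians and no test. Promoter windows are RefSeq's. Library measures were compared by exact permutation tests in Python 3.11.15 with scipy 1.17.1.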

Additional observations from a re-analysis of the deposited data

Results flagged for a closer look

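In 448 checks of 4 libraries, 24 found 1 library far from the other 3, and chance alone gives about 1 in 20. Control d was that library in 8 of the 12 control cases, at 59.5 CPM for MRPL1, 102 for SDHB, 96.6 for IDI1, 461.9 for EEF1B2, 248 for SLC7A1 and 46.8 for FN1, and at summed levels of 2110 CPM for complexes II and III and 3864 CPM for ATP synthase. The other control cases were control a for ENO1 (1465 CPM), ATP1B1 (24.2) and THY1 (7.79), and control c for TNFAIP3 (1.83). Among PFBA libraries, PFBA d stood apart for ENKD1 (16.5 CPM), MSRB1 (14.2), ATP5MC1 (64.1) and HMOX1 (9.41), and for the summed ATP synthase (3176 CPM) and proteasome genes (3536 CPM). PFBA b did so for ATP5PD (115.9 CPM), FH (112), RPL36A-HNRNPH2 (10.1) and the scaling factor (1.008), PFBA a for EIF6 (74.3 CPM) and PFBA c for S100A2 (28.1 CPM).

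PFBA and PFHxA differed in 23 named genes by the edgeR test of the difference (adjusted p under 0.05), a share near the 10.9% of all genes. Levels with PFBA were higher than with PFHxA, on the log2 scale, for MT1F (1.94), XIAP (1.74), RPL36A-HNRNPH2 (1.45), HSPA6 (0.70), PDK1 (0.36), PLOD2 (0.30), IL18 (0.23), IFIT1 (0.19), SLC38A2 (0.16) and SLC30A1 (0.12). Differences below 0 were those of PPP1R14BP3 (-0.37), ISG15 (-0.33), FASN (-0.31), SLC7A5 (-0.29), CPT1A (-0.24), FDPS (-0.23), LAMA5 (-0.21), NDUFB10 (-0.19), KRT5 (-0.18), SLC7A1 (-0.17), COX8A (-0.16), GSTP1 (-0.16) and CDKN1A (-0.15).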

How the results depend on the processing

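The count of called genes, 1 by edgeR, was 1 with RLE or upper-quartile scaling, a stricter filter or the splines on GC and length. It was 2 without a filter, 2 with the 8 libraries alone (PPAN-P2RY11 and RAPGEFL1), 0 with limma-voom and 0 with a minimum change of 1.2-fold. With 1 library left out it ran from 0 to 4, with 0 when control a, c, d or any PFHxA library but b was missing, 2 without PFBA b or c or PFHxA b, and 4 without PFBA d. DESeq2 called 44, or 33 on the 8 libraries, of which 21 were among the 44, and 26 without control d. With the splines and without control d the count was 0, against 1113 genes at an unadjusted p under 0.05. The replicate block by column letter called 0 genes, with 1737 at an unadjusted p under 0.05. Same-letter libraries of the 2 groups did not deviate together more than others. Pearson r was -0.07, -0.07, -0.05 and 0.07 for a to d, and ran from -0.13 to 0.16 between different letters. Whether libraries of the groups shared a culture or preparation cannot be told from this.

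Of 3722 fold changes of named genes under the alternatives, 3665 kept their direction and side of the threshold, 12 lost the call, 36 gained it and 9 changed sign, in low or even genes: CD68 without PFBA c (-0.058, up to 0.41 with others left out), CD79A with limma-voom (-0.050) and without control a (-0.11), control c (-0.10), PFBA a (-0.11) or PFBA b (-0.21, up to 0.28), CXCL8 without control c (-0.042) or PFBA a (-0.03, up to 0.24), and MUC1 without control b (0.0072, down to -0.18). List medians moved beyond the spread in 2 of 873 cases, the epithelial-mesenchymal list without PFBA d (0.09) and fibroblast markers with the stricter filter (-0.17), a filter that left no immune markers. The cause of these moves was not tested. Low counts limit the genes under 1 CPM, such as MT1F.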

Other observations

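Some well-expressed genes swung between libraries of the same group far beyond the usual spread. Of 10098 genes at a mean of 10 CPM or more over control and PFBA, 457 differed at least 2-fold between the lowest and the highest library of 1 group, 313 of them in control and 308 with PFBA. Of the 457, 104 (22.8%) shared their strand with an overlapping gene of at least 10 mean counts, as did 1081 (10.7%) of the 10098. The proliferation antigen gene MKI67 stood at 79.6, 194, 185 and 166 CPM in control and 206, 65.0, 160.0 and 67.6 with PFBA. The mitotic list, in contrast, summed to 3261 to 3388 CPM in control and 3063 to 3467 with PFBA. Further examples were chosen after their values were seen. DAG1, the dystroglycan gene, stood at 217, 220.3, 34.4 and 185 CPM in control and 217, 223, 31.7 and 58.2 with PFBA. ZNF292 stood at 12.2 CPM in control b and between 94.8 and 109.7 in the other 7 libraries. FOXA2, an epithelial transcription factor, stood at 20.02 CPM in PFBA b and 85.2 in PFBA c, and between 159 and 175 in the others. The cause was not tested.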
